A study of Equus caballus with 13 samples.

Results

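The deubiquitinases and ubiquitin-conjugating enzymes of horse (Equus caballus) chondrocytes, the cells of cartilage, were described by the synthesis rate and half-life of their mRNAs. Members were taken by gene symbol, as every row named USP or OTUD with a number or UBE2 with a letter, together with STAMBP, STAMBPL1, BAP1, UCHL1, UCHL3 and UCHL5. The rule matched 83 of the 11331 genes listed in either of 2 kinetics tables, 81 of 11056 in the age table and 83 of 11249 in the sex table. They fell into 55 deubiquitinases and 27 conjugating enzymes. The remaining match, USP6NL, encodes a RAB GTPase-activating protein and not a deubiquitinase, so it was kept out of both classes. The other members were classed by symbol, and whether each is an active enzyme was not checked. UBE2C and USP18 were listed in the sex table only.

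The series examined how age and sex relate to RNA control in joint tissue. All groups were wild-type chondrocytes taken from cartilage, cultured for 2 days and given 4-thiouridine (4sU), a uridine analogue that marks newly made RNA, for 4 h. They were old female (5 samples), young female (5 samples) and young male cells (3 samples), with no ages in years. The age table set old against young female cells and the sex table set young male against young female cells, with the same 5 young female libraries in both. Each table gave 1 value per gene and group, so no value carries a replicate error, sequencing depth is unknown, and no difference below was tested. Half-lives were read as hours and synthesis rates as arbitrary units. The implied level, synthesis rate times half-life over ln 2, assumes a steady state.

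Ubiquitin is a small protein that is attached to other proteins to mark them for degradation by the proteasome or to change their activity and location. An activating enzyme (E1) loads ubiquitin, a conjugating enzyme (E2, the UBE2 family) carries it, and a ligase (E3) directs it to the target. Deubiquitinases cut it off again. The USP, OTU and UCH families are cysteine proteases, and STAMBP and STAMBPL1 are zinc metalloproteases that prefer lysine-63-linked chains. In cartilage, ubiquitin enzymes are known as regulators of TGF-beta and NF-kappaB signalling, among other pathways.

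The chondrocyte markers COL2A1, ACAN, SOX9, COMP, COL9A1, COL11A1, MATN3 and HAPLN1, 8 of 8, were listed above 0 in every group. Of the markers of other cells, 1 of 7 macrophage and leukocyte genes (CD14) and 1 of 5 endothelial genes (VWF) were listed. The 5 fibroblast markers were all listed, with a summed implied level 2.13-fold lower in old than in young female cells (0 of 5 higher) and 2.47-fold higher in young male cells (4 of 5 higher). The summed level of the chondrocyte markers was 0.909-fold in old cells, with 3 of 8 higher and a median log2 ratio of −0.48, and 2.48-fold in male cells, with 7 of 8 higher and a median of 1.21. The summed marker levels moved with both comparisons, and their part in the results below was not tested. In such bulk samples fewer cells of a type and less RNA per cell cannot be told apart. There were 12 batch labels for 13 samples, and 1 batch held a young female and a young male sample. Without values per sample no comparison within that batch could be made, so batch and group cannot be told apart.

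The young female values, estimated once in each table from the same libraries, showed how far a value moved with the estimation alone. For 70 of the 80 class members in both tables (87.5%) the 2 young female half-lives differed by at most 5%, compared with 87.8% of all 10974 shared genes. The widest gaps were those of USP49, at 0.994 h in the age table and 1.37 h in the sex table, STAMBPL1, at 1.35 and 1.74 h, UBE2E2, at 1.86 and 2.33 h, and USP42, at 0.959 and 1.17 h. By this measure the ratios of these 4 genes are the least certain. This repeat holds no variation between animals.

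The median deubiquitinase mRNA was shorter-lived than the median conjugating enzyme mRNA in every group. Young female cells in the age table had a median of 2.78 h for 54 deubiquitinases (interquartile range 1.5 to 4.33), 3.72 h for 26 conjugating enzymes (2.21 to 7.05) and 3.64 h for all genes (1.78 to 8.67). In old female cells the medians were 2.74, 3.50 and 3.43 h in the same order. In young male cells they were 3.74 h for 55 deubiquitinases, 5.21 h for 27 conjugating enzymes and 4.63 h for all genes. Long-lived deubiquitinase mRNAs were few: 8 of 54 (14.8%) had a half-life over 8 h in young female cells, against 27.1% of all genes. Half-lives under 1 h were listed for 6 of the 54 (11.1%), for 0 of 26 conjugating enzymes and for 5.95% of all genes. In old cells the count was 8 of 54 (14.8%; all genes 8.29%). In the sex table the young female count was 4 of 55 (7.27%; all genes 4.95%), and in young male cells it was 0 of 55, beside 5.82% of all genes. These are descriptions of group values, and the classes were not tested against each other.

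**Figure D1:**
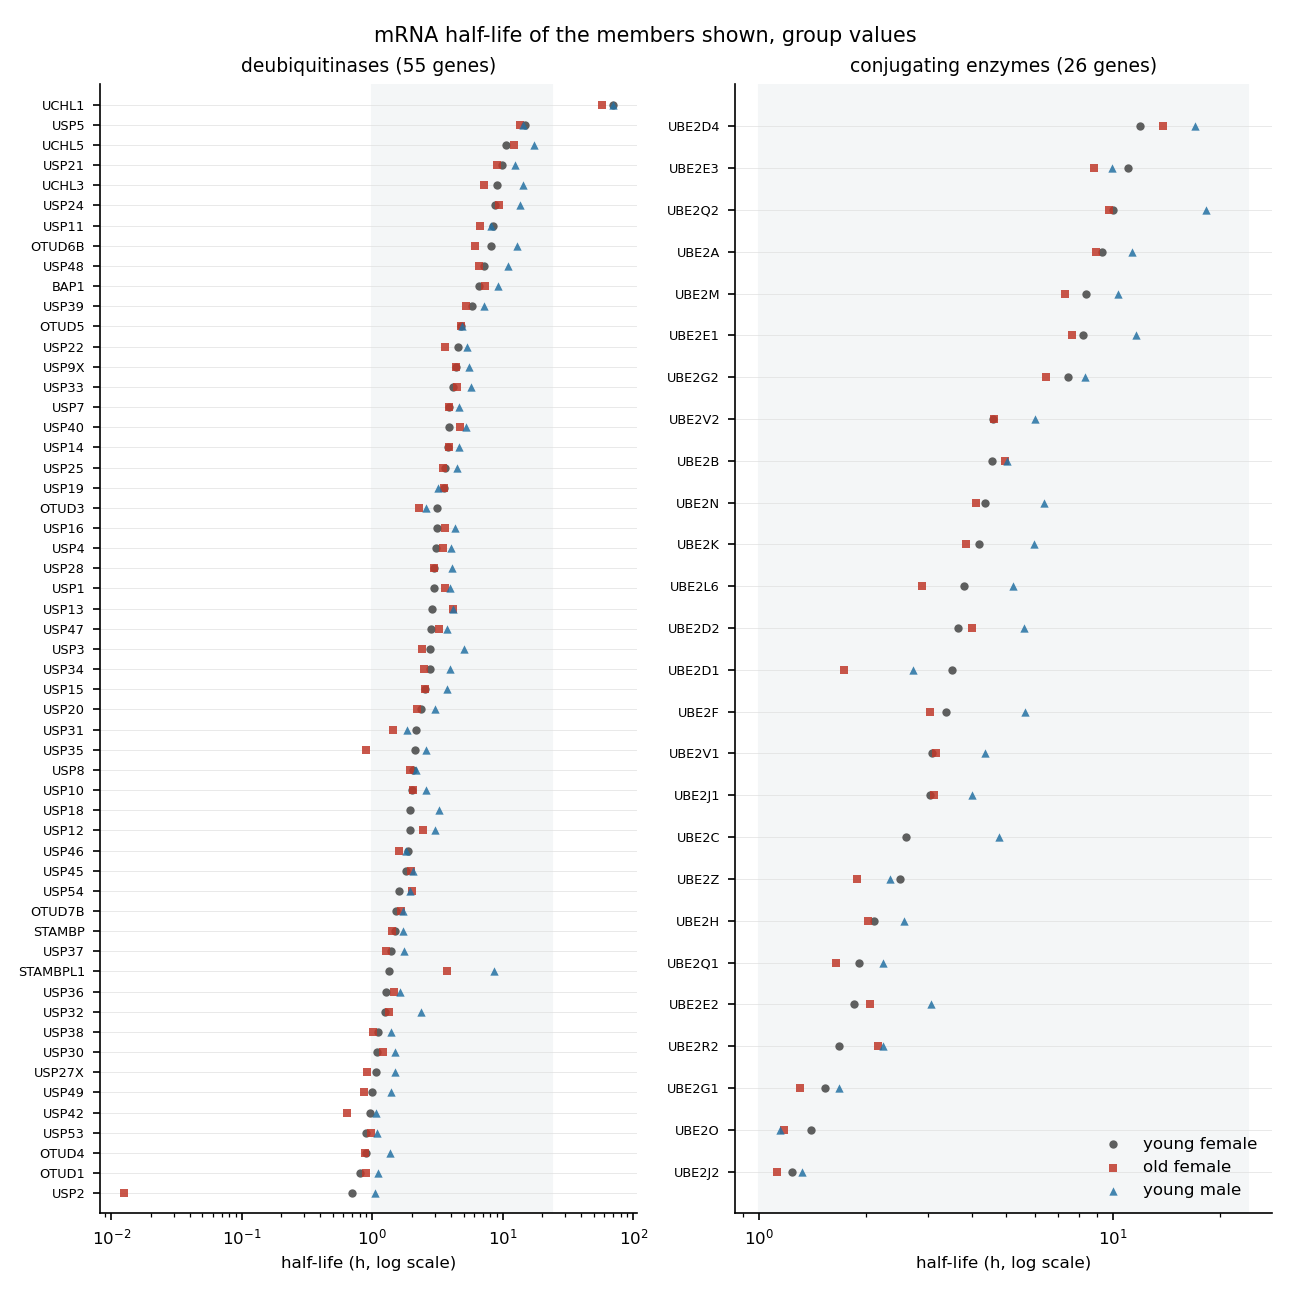
Half-life in hours (log axis) of 55 deubiquitinases on the left and 26 of the 27 conjugating enzymes on the right, ordered by the young female value. Grey circles are young female, red squares old female and blue triangles young male group values, and the shaded band marks 1 to 24 h. The deubiquitinases span from USP2 to UCHL1, most male values lie to the right of the female ones, and STAMBPL1, USP35, UBE2D1 and the old value of USP2 stand away from their neighbours.

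Among deubiquitinases the shortest young female half-lives were those of USP2 (0.696 h), a clock-controlled enzyme, OTUD1 (0.802 h) and OTUD4 (0.892 h). USP53 (0.896 h), USP42 (0.959 h) and USP49 (0.994 h) were also under 1 h. The longest were those of UCHL1, a hydrolase best known from neurons, USP5, which takes apart unanchored ubiquitin chains (14.8 h), and UCHL5, a proteasome-bound enzyme (10.5 h). UCHL1 stood at 69.3 h in young female and young male cells, the ceiling of every column, so its true half-life there was not resolved, and at 57.5 h in old cells.

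The conjugating enzymes covered a narrower range. Their shortest young female half-lives were those of UBE2J2 (1.23 h), an enzyme of the endoplasmic reticulum, UBE2O (1.41 h), a large enzyme with both conjugating and ligase activity, and UBE2G1 (1.54 h). Their longest were those of UBE2D4 (11.9 h), UBE2E3 (11.0 h) and UBE2Q2 (10.0 h). UBE2N, which builds lysine-63-linked chains, was at 4.35 h, and its partners UBE2V1 and UBE2V2, which lack a catalytic cysteine, were at 3.09 and 4.59 h. The order of half-lives was much the same in groups that shared no library: between old female and young male cells the Spearman correlation across genes was 0.959 for 54 deubiquitinases and 0.960 for 26 conjugating enzymes, beside 0.970 for all genes. Genes are not independent replicates, and all values came from the authors' same model.

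Related members were also compared in pairs. Of 25 pairs of related genes with both members in both tables, 13 were at least 2-fold apart in young female cells and 10 were so in every group. The share among gene pairs in general was not computed, so these counts are a description. The same gene had the longer half-life in all 3 groups in 23 pairs. UBE2G2 outlasted UBE2G1 by 4.85-fold in young female, 4.98-fold in old and 4.94-fold in male cells, with half-lives of 7.47 against 1.54 h in young female cells. UBE2Q2 outlasted UBE2Q1 by 5.21-, 5.87- and 8.20-fold in the same order. Within the UBE2E enzymes, UBE2E1 (8.21 h) and UBE2E3 (11.0 h) had long and UBE2E2 (1.86 h) short half-lives in young female cells.

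The deubiquitinase pairs showed the same kind of spread. USP5 (14.8 h) and its relative USP13 (2.89 h) were 5.11-fold apart in young female, 3.25-fold in old and 3.42-fold in male cells. USP22, the deubiquitinase of the SAGA complex, outlasted USP27X by 4.22-, 3.94- and 3.60-fold. Of the TGF-beta pathway enzymes USP4, USP11 and USP15, USP11 was the longest-lived in each group, at 8.39 h in young female cells against 3.08 h for USP4 and 2.54 h for USP15. The other 2 pairs were UBE2E1 with UBE2E3, within 1.34-fold throughout, and STAMBP with STAMBPL1. The order of the latter in young female cells depended on the estimate, with STAMBP longer in the age table (1.49 against 1.35 h) and STAMBPL1 longer in the sex table (1.74 against 1.51 h), as in old and male cells. Near-identical sequences such as those of the UBE2D and UBE2E genes can share reads, and how such reads were assigned is not given in the sources used here, so the values of these genes are less certain.

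**Figure D2:**
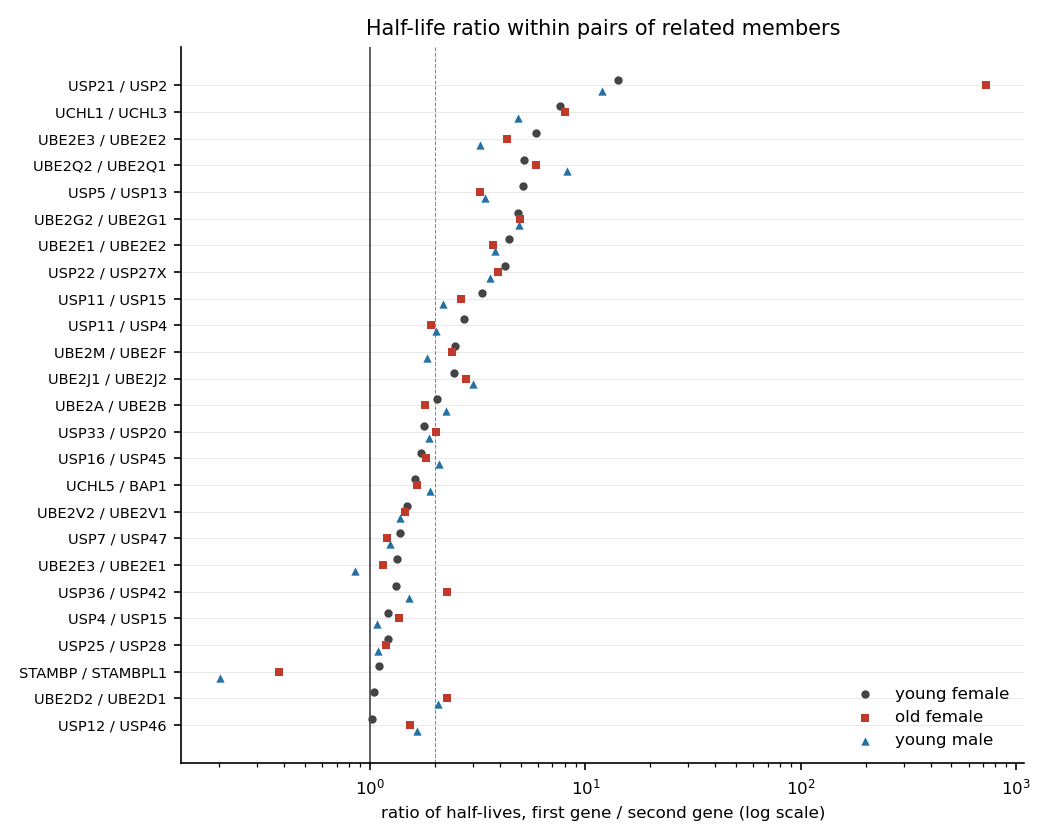
Ratio of half-lives within 25 pairs of related members (log axis), with the gene that was longer-lived in young female cells as numerator. Circles are young female, squares old female and triangles young male values, the solid line marks equal half-lives and the dashed line a 2-fold difference. Most pairs keep to 1 side of the solid line in all groups; UBE2E3 / UBE2E1 crosses it, STAMBP / STAMBPL1 crosses it with the age table's young female estimate plotted here but not with that of the sex table, and the old value of USP21 / USP2 rests on an old USP2 half-life of 0.0126 h.

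The first comparison asked how the members differed between old and young female cells. Most differed little, and at the implied level 0 of 80 were past 2-fold, whereas 4.12% of all genes were (455 of 11056). Implied level ratios ran from −0.89 on the log2 scale for USP2 to 0.49 for STAMBP, and 78 of 80 members (97.5%) lay within 0.5 of 0, against 84.4% of all genes. For half-life 4 of 80 members were past 2-fold, 1 longer and 3 shorter, beside 3.53% of all genes, and for synthesis rate 2 of 80, beside 7.52%. The median log2 ratio of half-life was −0.01 for deubiquitinases (30 of 54 shorter) and −0.11 for conjugating enzymes (18 of 26 shorter), where all genes had −0.08 with 63.1% shorter. Relative to that median the deubiquitinases turned to the other side, at 0.079 with 32 of 54 longer, and the conjugating enzymes stood at −0.03 with 15 of 26 shorter. The median log2 ratio of synthesis rate was 0.00 for deubiquitinases and 0.13 for conjugating enzymes (19 of 26 higher), against 0.08 for all genes. The count of 4 for half-life was 2 when both group values had to lie between 1 and 24 h, the range taken here as resolved, and 1 among the upper 75% of genes by synthesis rate. The 2 were STAMBPL1 and UBE2D1, neither of which was in the upper 75%. The 1 left there was USP2, whose old half-life of 0.0126 h is below the resolved range. No member past 2-fold in half-life thus met both conditions.

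STAMBPL1, an endosomal deubiquitinase also called AMSH-LP, differed most in half-life and synthesis rate among the members within 1 to 24 h. Its half-life was 1.35 h in young female and 3.72 h in old cells (log2 ratio 1.46), and its synthesis rate was 80.2 and 21.7 (−1.89). The implied level moved less, by −0.43. With the young female estimate of the sex table the half-life ratio was 1.09 and the synthesis ratio −1.45, still past 2-fold. STAMBPL1 was not among the upper 75% of genes by synthesis rate, so its values rest on a low signal. Its paralogue STAMBP showed no such pattern, with half-lives of 1.49 and 1.41 h and synthesis rates of 157 and 233.

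UBE2D1, a conjugating enzyme used by many ligases, had a half-life of 3.50 h in young female and 1.74 h in old cells (−1.01) and a synthesis rate of 69.9 and 131 (0.90). Its half-life ratio was −0.92 after centring on the median of all genes, under the 2-fold threshold. Its relative UBE2D2 was at 3.65 and 3.99 h, and UBE2D4 at 11.9 and 13.8 h. USP35 was at 2.12 h in young and 0.888 h in old cells (−1.25), with synthesis rates of 70.2 and 117. Its old half-life is under the resolved range, and its young female half-lives differed by 12.6% between the tables. USP2 had a half-life of 0.696 h in young and 0.0126 h in old cells and a synthesis rate of 345 and 10301. That old half-life lies far below the resolved range, and the implied level of USP2 (−0.89) stayed under 2-fold.

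Below the 2-fold threshold, the next largest differences among resolved members were smaller than 1 log2 unit throughout. USP13 was at 2.89 h in young and 4.16 h in old cells (0.53), with a synthesis ratio of −0.71. UBE2R2, a partner of cullin ligases, was at 1.68 and 2.17 h (0.37). USP31 (2.14 and 1.44 h) and OTUD3 (3.14 and 2.26 h) had shorter half-lives in old cells. UCHL3, a hydrolase that acts on ubiquitin and NEDD8, had a higher synthesis rate in old cells, 27.6 against 16.4 (0.75), and USP12 a lower one, 882 against 1139 (−0.37). Without replicate values, none of these differences has an error.

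**Figure D3:**
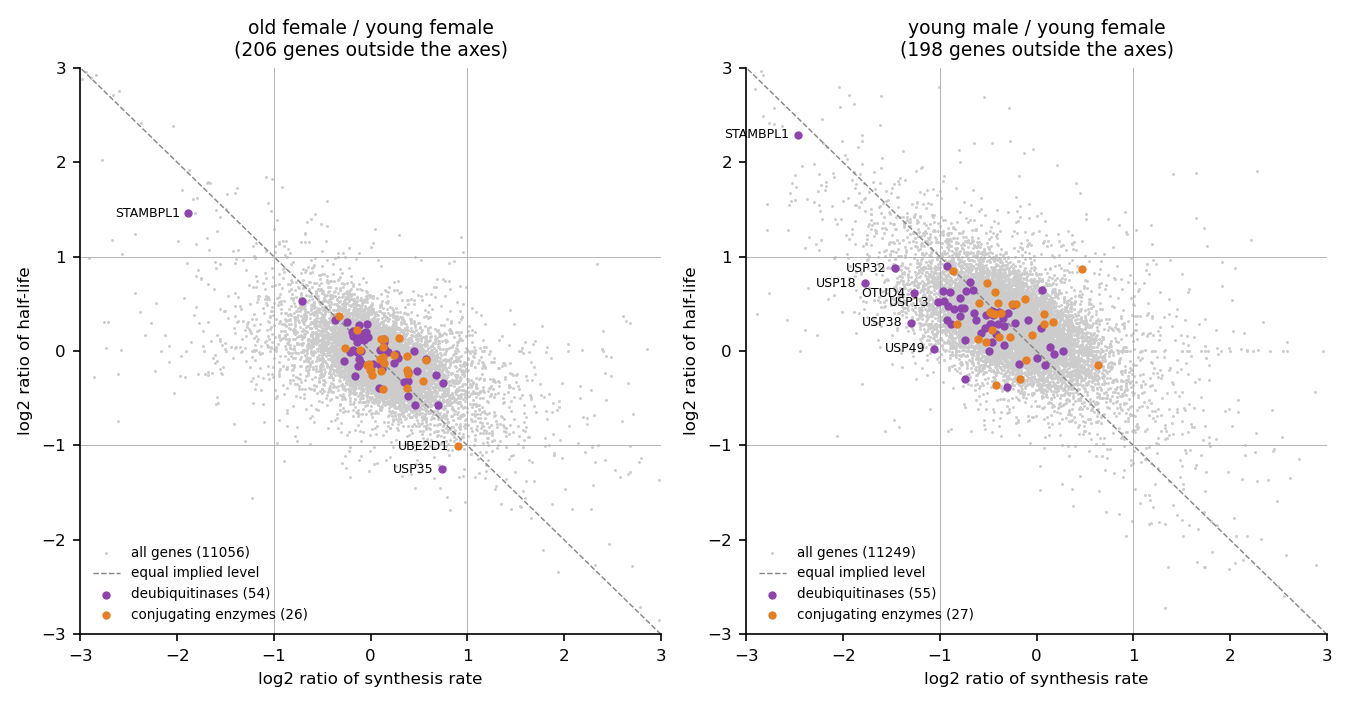
Log2 ratio of half-life against log2 ratio of synthesis rate for old over young female cells (left) and young male over young female cells (right). Grey points are all genes, purple points deubiquitinases and orange points conjugating enzymes; thin lines mark 2-fold, the dashed line equal implied level, and members past 2-fold inside the axes are named. Members lie around the origin on the left and to the upper left of it on the right, and STAMBPL1 is far out along the dashed line in both panels; the old value of USP2 is among the 206 genes outside the left axes.

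The second comparison asked how the members differed between young male and young female cells. Male cells had longer half-lives for most members and lower synthesis rates, above all for deubiquitinases, whose implied levels were mostly lower. Half-life was longer in male cells for 47 of 55 deubiquitinases and 23 of 27 conjugating enzymes, with median log2 ratios of 0.36 and 0.39. Across all genes 77.3% were longer, with a median of 0.27. Relative to that median 37 of 55 and 17 of 27 were longer, with medians of 0.0814 and 0.12. Past 2-fold in half-life was 1 of 82 members, STAMBPL1, beside 7.58% of all genes.

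Synthesis rates were lower in male cells for 48 of 55 deubiquitinases (median log2 ratio −0.54) and for 22 of 27 conjugating enzymes (−0.39), where 71.1% of all genes were lower (−0.28). Past 2-fold were 7 of 82 members, beside 12.2% of all genes. All 7 were deubiquitinases and all were lower in male cells, beside 8.37% of all genes in that direction. After centring on the median of all genes 44 of 55 deubiquitinases were lower, with a median of −0.26 and 4 members past 2-fold, and within deciles of half-life the median was −0.21 with 2 past 2-fold, over 54 deubiquitinases without USP18, which was not in both tables. For conjugating enzymes the centred median was −0.11, with 15 of 27 lower.

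The 7 deubiquitinases were STAMBPL1, USP18, USP32, USP38, OTUD4, USP49 and USP13. The synthesis rate of STAMBPL1 was 59.4 in young female and 10.7 in male cells (−2.47) and a half-life of 1.74 and 8.54 h (2.29). Its implied level differed by only −0.18, so that both comparisons listed slower synthesis and a longer half-life of this mRNA relative to the same young female cells. Because the young female libraries are shared, these are not independent observations. In both comparisons STAMBPL1 was outside the upper 75% of genes by synthesis rate. STAMBP was at 1.51 h in young female and 1.72 h in male cells, with synthesis rates of 147 and 110.

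USP18, which removes the ubiquitin-like protein ISG15 and is induced by interferon, had a synthesis rate of 36.1 in young female and 10.6 in male cells (−1.77). Its half-life was 1.95 and 3.22 h, and the log2 ratio of its implied level was −1.05. USP32 had synthesis rates of 713 and 258 (−1.46), and USP38 of 631 and 256 (−1.30). Within half-life deciles USP38 was at −0.98, under the 2-fold threshold. OTUD4 was at 896 and 373 (−1.27), or −0.99 after centring. USP49, a histone H2B deubiquitinase, was at 196 and 93.7 (−1.06), and USP13 at 53.3 and 26.3 (−1.02). After centring these last 2 were −0.78 and −0.74. UBE2E3 (0.63), UBE2C (0.46, listed in the sex table only) and USP5 (0.28) had the highest synthesis ratios among resolved members.

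Half-lives of the other members shifted by less than 2-fold. USP3, a histone H2A deubiquitinase, was at 2.69 h in young female and 5.01 h in male cells (0.90). USP32 was at 1.28 and 2.35 h (0.88), and UBE2Q2 at 10.2 and 18.3 h (0.85). A few members went the other way, among them OTUD3, from 3.35 to 2.58 h (−0.38), UBE2D1, from 3.50 to 2.72 h (−0.36), USP31, from 2.25 to 1.83 h (−0.30), and UBE2O, from 1.40 to 1.14 h (−0.30). UCHL1 was at the ceiling in both groups, so a change was not detectable. Longer half-life and slower synthesis together were listed for 63 of 82 members (76.8%), beside 62.6% of all genes. Both quantities were estimated from the same libraries.

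Implied levels were lower in male cells for 43 of 55 deubiquitinases, with a median log2 ratio of −0.24, and for 14 of 27 conjugating enzymes, with a median of −0.02. Across all genes 49.5% were lower and the median was 0.01. Past 2-fold were 5 of 82 members, beside 4.61% of all genes. Lower were USP18 (−1.05), USP49 (−1.04), USP31 (−1.04) and USP38 (−1.001, at the threshold), beside 1.61% of all genes in that direction, and higher was UBE2C (1.33). UBE2C was listed in the sex table only, with an implied level of 79.3 in young female and 200 in male cells. How genes were filtered is not given, so UBE2C may have been listed only through its male value. Its higher male level can then follow from the filter. No member was past 2-fold after centring within half-life deciles, an analysis that leaves out USP18 and UBE2C, which were not in both tables.

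The level ratio followed the half-life. With genes grouped by their half-life in old female cells, which did not enter the ratio, all 19 deubiquitinases under 2 h had a lower implied level in male cells, with a median of −0.42. Of all 3451 genes in that range 79.9% were lower, with a median of −0.29. For half-lives of 2 to 5 h, 18 of 24 deubiquitinases were lower, with a median of −0.13, beside 56.9% of all genes with −0.06. From 5 h up 5 of 11 were lower, with a median of 0.04, beside 19.8% of all genes with 0.27. The conjugating enzymes had medians of −0.45 (6 genes), 0.00 (12 genes) and 0.20 (8 genes) over the same ranges. After centring within deciles, deubiquitinases kept a median of −0.15, with 36 of 54 lower, and conjugating enzymes one of 0.01, with 12 of 26 lower.

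**Figure D4:**
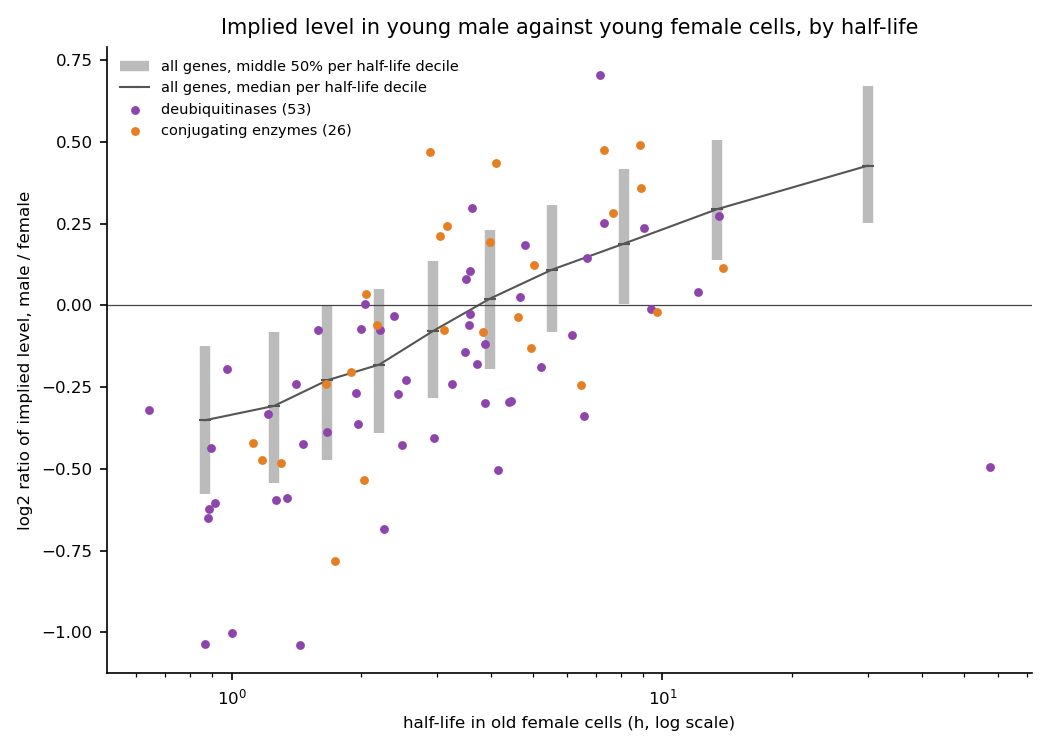
Log2 ratio of implied level, young male over young female, against the half-life in old female cells (h, log axis). Purple points are 53 deubiquitinases (USP2, at 0.0126 h, is off the axis) and orange points 26 conjugating enzymes; grey bars show the middle 50% and the line the median of all genes in 10 bins of equal size. The line climbs from −0.35 to 0.43, and more of the deubiquitinases lie below it than above it.

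By role, the members of chromatin and of the cell cycle gave the following values. Of 7 deubiquitinases that act on histones (BAP1, USP3, USP7, USP16, USP21, USP22 and USP27X), all 7 were longer-lived in male cells (77.3% of all genes) and 6 had a lower synthesis rate (71.1% of all genes). Past 2-fold were 0 of the 7 in either, beside 7.58% of all genes for half-life and 12.2% for synthesis rate. USP49, which also acts on a histone but was not in this list, was past 2-fold lower in synthesis rate (−1.06). BAP1, a tumour suppressor that removes ubiquitin from histone H2A, was at 6.51 h in young female, 7.30 h in old and 9.16 h in male cells. USP7, which stabilises MDM2, was at 3.90, 3.88 and 4.60 h. In old cells 6 of the 7 had a higher implied level, with a median of 0.12, beside 5602 of 11056 genes in all. UBE2C, the conjugating enzyme of the anaphase-promoting complex, was at 2.61 h in young female and 4.76 h in male cells (0.87), with synthesis rates of 21.1 and 29.1. USP1, a DNA repair enzyme, was at 2.98 and 3.93 h, and USP37 at 1.43 and 1.75 h.

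Members linked to the endoplasmic reticulum, the proteasome, endosomes and mitochondria gave the following values. The 5 conjugating enzymes linked to the endoplasmic reticulum (UBE2G1, UBE2G2, UBE2J1, UBE2J2 and UBE2K) had lower synthesis rates in male cells in 5 of 5 cases, with a median of −0.52, and lower implied levels in 5 of 5, with a median of −0.24. Of all genes 71.1% were lower in synthesis rate and 49.5% in implied level. The median half-life of these 5 in old cells was 3.12 h, and among all genes of 2 to 5 h there 56.9% had a lower implied level. In old cells their median level ratio was 0.02. Of the proteasome-bound enzymes, USP14 was at 3.78 h in young female, 3.88 h in old and 4.60 h in male cells, and UCHL5 at 10.5, 12.1 and 17.4 h. Of the 3 endosomal deubiquitinases, STAMBPL1 was past 2-fold in half-life and synthesis rate in both comparisons, as given above, and STAMBP and USP8 were not. USP8 was at 2.04, 1.94 and 2.15 h. USP30, which sits on mitochondria, was at 1.09, 1.21 and 1.5 h. UBE2A and UBE2B, which work with the histone H2B ligase, were at 9.31 and 4.54 h in young female cells.

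Some members handle ubiquitin-like proteins in place of ubiquitin. UBE2M and UBE2F carry NEDD8, the modifier that activates cullin ligases. UBE2M was at 8.41 h in young female, 7.34 h in old and 10.4 h in male cells, and UBE2F at 3.37, 3.04 and 5.65 h. Both had a higher implied level in male cells, with log2 ratios of 0.48 for UBE2M and 0.21 for UBE2F. UBE2L6, which carries ISG15, was at 3.80 h in young female and 2.88 h in old cells (−0.40). Its synthesis rate in male cells (40.6) was close to the young female value (38.5), and its implied level ratio was 0.47. The other ISG15 member, USP18, was lower in male cells, as given above. Of UBE2M, UBE2F and UBE2L6, none was past 2-fold in half-life, synthesis rate or implied level in either comparison. The shares of all genes past 2-fold ran from 3.53% to 12.2% by quantity.

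Other genes of the pathway were listed by family. All 8 E1 genes were longer-lived in male cells, beside 77.3% of all genes. In synthesis rate 3 of the 8 were past 2-fold lower, beside 8.37% of all genes. They included UBA7 (−2.24), the E1 of ISG15, and UBA3 (−1.68), a subunit of the NEDD8 E1. These 2 were also past 2-fold longer in half-life, beside 632 of 11249 genes in all. In male cells UBA7 had a half-life of 39.8 h, outside the resolved range, and a synthesis rate of 4.99. UBA7 was the 1 E1 of 8 past 2-fold in implied level in old cells (−1.39), beside 4.12% of all genes. Of 22 HECT ligases, 2 had a synthesis rate past 2-fold lower in male cells, SMURF1 (−1.21) and AREL1 (−1.13), and 20 had a lower implied level, with a median of −0.31. The shares of all genes were 8.37% past 2-fold lower in synthesis rate and 49.5% lower in implied level. The median HECT half-life in old cells was 2.89 h. Among all genes of 2 to 5 h in old cells 56.9% had a lower implied level, with a median of −0.06. Of 14 cullin ligase subunits, 0 were past 2-fold in either comparison, where the shares of all genes ran from 3.53% to 12.2% by quantity. Their median young female half-life was 7.64 h, longer than the 2.83 h of the HECT ligases.

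Deubiquitinases outside the symbol rule had a median half-life of 2.08 h over 18 genes in young female cells, beside 2.78 h for those inside it. Of these genes, 19 in the sex table, TNFAIP3, an inhibitor of NF-kappaB, had a synthesis rate (−1.01) and an implied level (−1.07) past 2-fold lower in male cells, and YOD1 one past 2-fold higher (4.58) with a half-life of 0.0377 h, outside the resolved range. The 7 SUMO proteases had a median young female half-life of 1.80 h and 0 past 2-fold in either comparison, against the same all-gene shares of 3.53% to 12.2%. Of the ubiquitin genes themselves, UBB, the stress-responsive polyubiquitin gene, was at 3.85 h in young female cells, and RPS27A, which encodes ubiquitin fused to a ribosomal protein, was at 37.1 h.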

How the data were processed

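Per the submitters' processing notes, the tools included cutadapt 4.5 and STAR 2.5.3, and the genome build was EquCab3.0. What each tool did, how genes were annotated and filtered, which kinetic model was used and how replicates were combined are not given in the sources used here. Per the labels' protocols, RNA was alkylated with iodoacetamide for 15 min after labelling, which makes labelled uridines appear as T-to-C conversions, and libraries were poly(A)-selected and directional. The deposited synthesis rates are a signal in arbitrary units, and the deposited half-lives are values with no stated unit, 1 per gene and group. They were read as hours, an assumption, since labelling lasted 4 h. Every column stops at 69.3, which in hours is a decay rate of 0.01 per h, but this ceiling does not settle the unit. The group headed "Young" was taken as young female from the labels. With 0 columns per sample, the log2 ratio of group values was described, and past 2-fold means an absolute log2 ratio of at least 1. No pseudocount or filter was applied in the values reported first. Medians and ratios were computed with Python 3.11.15 and pandas 2.3.3 and checked on simulated data. Members, gene lists and pairs were chosen with earlier results of these data known. Genes named were those past 2-fold in half-life or synthesis rate, the 3 highest and 3 lowest ratios among members of 1 to 24 h, the 3 shortest and 3 longest half-lives of each class, and members of pairs and role lists; USP30, USP42, USP53 and UBE2N were named after their values were seen. Results on a few single genes are not reported here.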

Additional observations from a re-analysis of the deposited data

How the results depend on the processing

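With no replicates, limits of 1.5 times for counts and 0.1 log2 units for medians stood in for the spread. Of the alternative values, 100 stayed within them and 32 did not. Some of the 100 could not differ from the main value. All 80 members of the age comparison were in both tables. All 26 conjugating enzymes of the age comparison and all 27 of the sex comparison lay within 1 to 24 h. The 100 is therefore no measure of stability by itself. Where fewer genes were admitted a lower count follows in part from that; otherwise the cause was not tested. In the age comparison, members past 2-fold in half-life, synthesis rate and implied level (4, 2 and 0) were 7, 11 and 2 at a threshold of 0.5. For half-life and synthesis they were 2 and 1 within 1 to 24 h, 1 and 1 in the upper 75% by synthesis rate, and 1 and 0 where both young female half-lives were within 5%, an alternative added after seeing the data. In the sex comparison (1, 7 and 5) they were 21, 36 and 15 at 0.5, 0, 4 and 3 in the upper 75%, and 0, 4 and 1 within 5%. Synthesis counts were 4 after centring and 2 within half-life deciles. The deciles also left out USP18 and UBE2C, which were not in both tables, so their counts mix both changes. Level counts were 0 within deciles, 3 with the other table's young female values and 3 for genes in both tables. Male median half-life ratios, 0.36 for deubiquitinases and 0.39 for conjugating enzymes, were 0.0814 and 0.12 after centring and 0.12 and 0.0669 within deciles, and 0.29 for conjugating enzymes in the upper 75%. Synthesis medians, −0.54 and −0.39, were −0.26 and −0.11 after centring and −0.21 and −0.0546 within deciles. Of 51 alternative values of single members past 2-fold, 39 stayed past it and 12 did not. No paired analysis was possible because the tables hold group values only; leaving out replicates was not run for the same reason, and no listed value was 0, so no pseudocount was tried. Depth is unknown, and half-lives far from 4 h are the least resolved.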

Other observations

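Of the members, USP9X, USP11, USP27X, OTUD5 and UBE2A lie on the X chromosome in mammals; this list was made after the values were seen. Their log2 ratios of implied level, young male over young female, were −0.30 for USP9X, which escapes X inactivation in humans, 0.14 for USP11, −0.60 for USP27X, 0.18 for OTUD5 and 0.36 for UBE2A. The 5 genes thus lay on both sides of 0, and 0 were past 2-fold in half-life, synthesis rate or level, where 7.58%, 12.2% and 4.61% of all genes were.

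USP2 was one of 113 genes of the age table with a half-life under 0.1 h in old cells and not in young female cells, and 83 genes had the reverse. Over the 113 genes the half-life ratio had a median of −4.93 on the log2 scale, the synthesis ratio one of 4.81 and the level ratio one of −0.04, with 6 past 2-fold in level. In male cells only, 115 genes of the sex comparison were under 0.1 h, among them YOD1 and 0 members. The cause of these values was not tested.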
